A study of Mus musculus with 4 samples.

Results

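Genes of glycolysis and of the response to low oxygen were examined in embryonic mouse cerebral cortex of embryonic day 15 (E15), in 2 control libraries (titled WT) and 2 libraries of Lhx2 cKO cortex. The set was given as 41 gene symbols and was matched to the deposited count matrix by symbol. Of these symbols 40 were found. Aldoa has 2 rows under different Ensembl identifiers, so that 41 of the 13289 genes of the matrix were analysed. Car9, a carbonic anhydrase induced by hypoxia, was not analysed here. Both groups are of the same tissue and age, and polyadenylated RNA was sequenced from fresh brain. Lhx2 encodes a LIM-homeodomain transcription factor of cortical progenitors, and cKO is read as conditional knockout. The Cre driver, the allele, the strain, the sex and the number of embryos behind a library are not given in the sources used here, and nothing states that replicates came from separate embryos. The p-values therefore measure the spread between these libraries, which may be technical.

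Glycolysis splits glucose into pyruvate in the cytosol. Pyruvate is then either reduced to lactate by lactate dehydrogenase or taken into mitochondria, where pyruvate dehydrogenase feeds it to respiration. Cortical progenitors of the embryo are known to rely strongly on glycolysis, and neurons shift toward respiration as they mature. The hypoxia-inducible factors (HIFs) are pairs of an oxygen-sensitive alpha subunit and a stable partner. Prolyl hydroxylases mark the alpha subunit for destruction when oxygen is present, and in low oxygen the factor binds the core motif ACGTG or GCGTG and raises many glycolytic genes, Vegfa and others.

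The promoters of 5 genes are shown because they hold that core motif while their transcripts did different things: 1 gene fell, 1 rose, and 3 did not pass the test. Each sequence is the 250 bases before the transcription start in RefSeq (GRCm38.p6), 5′ to 3′ on the strand of the gene, with matches to ACGTG or GCGTG on either strand in capitals. Pdk2, which fell, lies at chr11:95041372-95041621 on the minus strand. P4ha1, which rose, lies at chr10:59323046-59323295 on the plus strand. Its call was near the threshold (edgeR adjusted p = 0.0478) and was lost under 6 of 12 alternatives. Ldha (chr7:46845554-46845803), Pgk1 (chrX:106186850-106187099) and Slc2a1 (chr4:119108495-119108744), all on the plus strand, did not pass the test. Pdk2 and Ldha each have 2 windows in the table, of which 1 is shown. The window not shown holds 0 matches for Pdk2 and 1 match for Ldha.
Pdk2: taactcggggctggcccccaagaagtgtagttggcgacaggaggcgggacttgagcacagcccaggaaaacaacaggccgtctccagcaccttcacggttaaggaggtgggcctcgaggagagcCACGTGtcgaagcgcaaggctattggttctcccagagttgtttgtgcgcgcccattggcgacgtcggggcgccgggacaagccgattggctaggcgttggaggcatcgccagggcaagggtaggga
P4ha1: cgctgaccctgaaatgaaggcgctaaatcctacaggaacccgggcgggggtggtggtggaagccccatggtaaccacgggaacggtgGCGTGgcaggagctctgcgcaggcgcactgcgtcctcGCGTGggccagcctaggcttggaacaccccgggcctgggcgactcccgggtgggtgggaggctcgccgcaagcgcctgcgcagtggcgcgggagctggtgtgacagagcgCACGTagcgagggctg
Ldha: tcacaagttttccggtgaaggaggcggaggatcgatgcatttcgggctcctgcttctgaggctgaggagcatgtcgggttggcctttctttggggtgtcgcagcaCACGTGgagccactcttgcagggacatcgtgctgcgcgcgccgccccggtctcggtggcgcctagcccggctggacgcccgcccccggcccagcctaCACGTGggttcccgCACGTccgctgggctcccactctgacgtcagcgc
Pgk1: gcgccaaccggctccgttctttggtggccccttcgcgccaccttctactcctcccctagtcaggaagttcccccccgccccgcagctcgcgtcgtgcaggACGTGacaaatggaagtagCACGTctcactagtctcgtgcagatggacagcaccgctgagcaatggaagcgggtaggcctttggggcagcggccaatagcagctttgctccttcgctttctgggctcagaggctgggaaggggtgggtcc
Slc2a1: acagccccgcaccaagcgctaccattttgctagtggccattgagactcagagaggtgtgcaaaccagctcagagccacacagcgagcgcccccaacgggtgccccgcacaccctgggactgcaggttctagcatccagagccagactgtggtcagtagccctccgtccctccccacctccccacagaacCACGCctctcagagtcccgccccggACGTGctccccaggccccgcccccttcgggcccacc
The CACGTG of Pdk2 and the pair of CACGTG in Ldha read as ACGTG on both strands and are also the letters of an E-box, the motif of many basic helix-loop-helix factors. Of the 36 analysed genes with a window in the RefSeq table, 33 (91.7%) held at least 1 match in at least 1 window, against 61.7% of the 10458 gene symbols of the matrix with a window. By window the shares were 76.8% of 56 and 55.3% of 13482. The motif was present in windows of 5 of 6 genes called as changed and of 28 of 30 not called. Ndrg1 and Slc2a3, which were also called, had no window, so this count leaves them out. Eno2, Tpi1 and Gpi1 were the 3 genes with a window and no match in it. A match describes letters in a window and not a bound site.

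Read counts were scaled to library size (CPM) with edgeR's TMM factors. Library totals ranged from 22294237 to 24609627 counts, and 3 counts, taken as the floor of detection, corresponded to 0.122 to 0.135 CPM. The lowest count of any analysed gene in any library was 27. The Lhx2 transcript was at 316 and 287 CPM in control and at 239 and 247 CPM in Lhx2 cKO, 80.7% of its control level (log2 fold change -0.31, SE 0.098, edgeR adjusted p = 0.0191). Which part of the gene is deleted is not given, so reads from the remaining part may be counted, and this level alone is no full check of the labels. Marker lists of neurons, radial glia and intermediate progenitors were found in full in the matrix (13, 11 and 9 genes). Of these, 7 of 9 intermediate progenitor markers were called lower and 0 higher, with a sum of 1084 and 1072 CPM in control against 673 and 676 CPM in Lhx2 cKO. Of the radial glia markers 5 were called lower and 1 higher, and their sum was 869 and 905 CPM against 816 and 790 CPM. Of 8 astrocyte markers 5 were called higher and 1 lower, with a median log2 fold change of 0.86. Their sum moved less, from 170 and 178 CPM in control to 187 and 180 CPM in Lhx2 cKO. The part of these cell types in the values of the glycolytic and hypoxia genes was not tested. In bulk tissue, fewer cells of a type and less RNA per cell cannot be told apart.

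The share of glycolytic and hypoxia-response genes that changed was close to the share of all genes, and most changes were small. In edgeR's quasi-likelihood test, with p-values adjusted over all 13288 genes tested, 8 of 41 genes were called at an adjusted p under 0.05 (19.5%). Over all genes the share was 20.8%, so that the count says nothing particular of this set. Of the 8, 6 rose (background 11.6%) and 2 fell (background 9.17%). The median log2 fold change was -0.02 over the 41 genes and 0.003 over all genes. A call with at least a 1.5-fold change was reached by 2 of the 41, Pdk2 and Ndrg1, against 8.88% of all genes. The control and Lhx2 cKO libraries did not overlap for 25 of the 41, against 59.3% of all genes. Of these 25, 13 were higher (background 30.2%) and 12 lower (background 29.1%). DESeq2 called 6 of 41 (background 16.3%). Without control 1, 4 genes were called (background 13.5%), and at an adjusted p under 0.01 there were 3 (background 12.8%): Pdk2, Slc2a3 and Ndrg1. These 3 kept their calls under each of the 12 alternatives run.

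**Figure D1:**
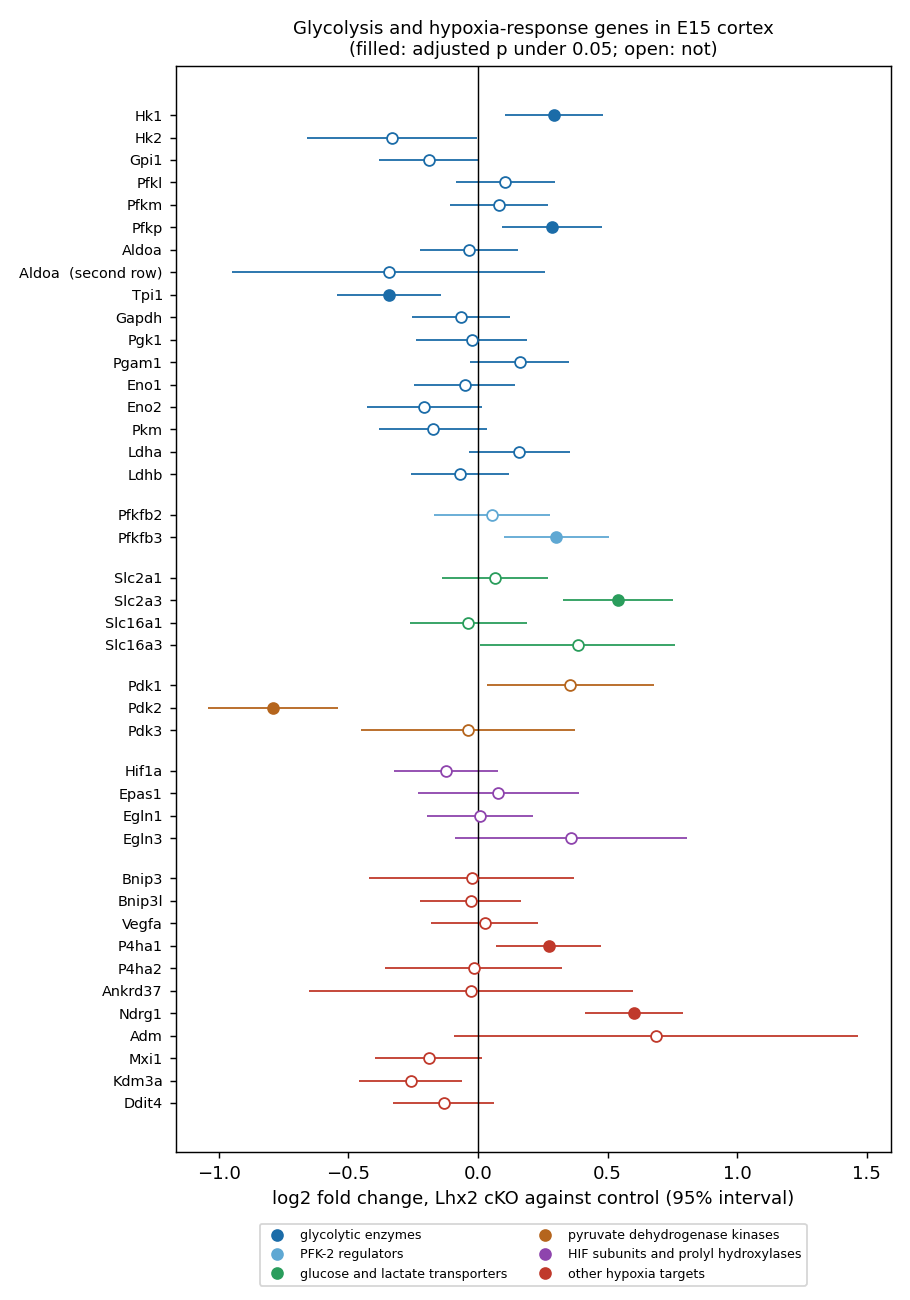
Log2 fold change of each gene in Lhx2 cKO against control, with its 95% interval (edgeR), grouped and coloured by role; filled points passed the test. Most intervals cross 0, with Pdk2 lowest at -0.79, while Slc2a3 at 0.54 and Ndrg1 at 0.60 stand to the right of 0.

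Levels between genes can be compared only per length, and were divided by the deposited gene length (CPM per kb). In control, Pkm, the muscle-type pyruvate kinase of the last step of glycolysis, was the highest at 112 CPM per kb, followed by Ldhb at 79.2, Pgam1 at 59 and Ldha at 50.3 CPM per kb. Of the hypoxia targets outside glycolysis, Ddit4, an inhibitor of mTORC1 signalling, was the highest at 45.4 CPM per kb. The lowest were Adm at 0.888, Slc16a3 at 1.38 and P4ha2 at 1.67 CPM per kb. Aldoa, Gapdh, Ldha, Pgam1, Pgk1 and Bnip3l have named pseudogenes in GENCODE M21, and Eno1 has the retrogene Eno1b, so reads can be shared between near-identical copies and the levels of these genes are uncertain.

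**Figure D2:**
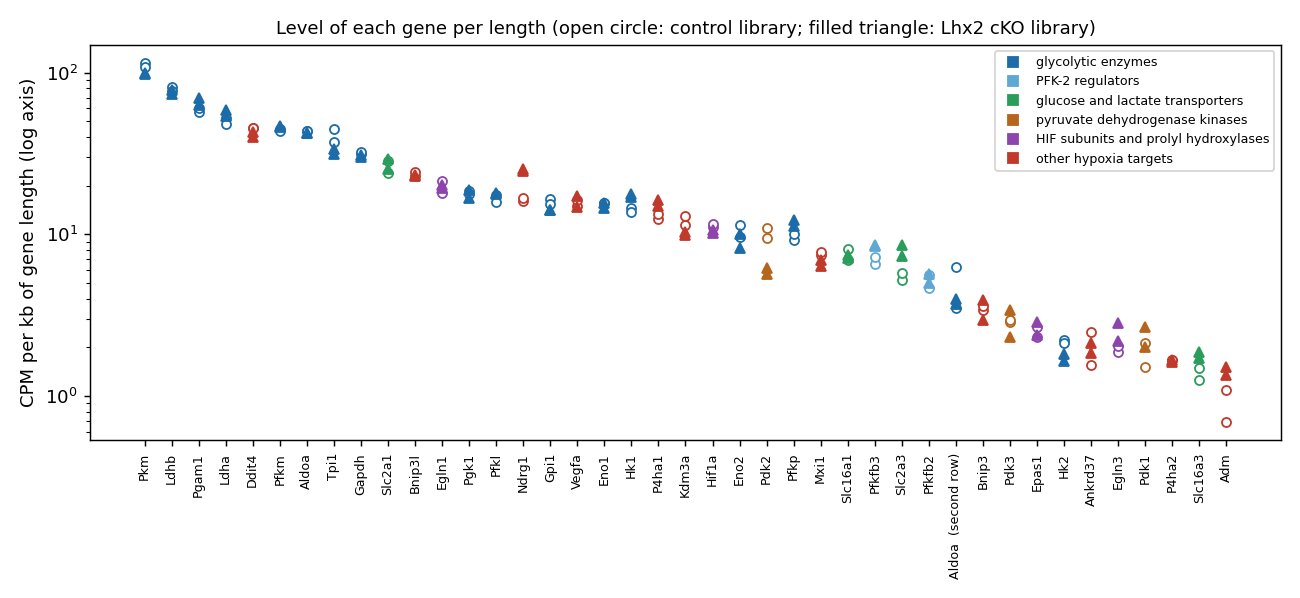
CPM per kb of gene length (log axis) of each gene in each library, ordered by the control mean; open circles are control and filled triangles Lhx2 cKO libraries, coloured by role. Levels run from 112 CPM per kb for Pkm to 0.888 for Adm in control, and at this scale the libraries of most genes lie on each other, with Pdk2 and Ndrg1 apart.

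Among the glycolytic enzymes 3 of 17 rows were called (17.6%, beside 20.8% of all genes): Hk1 and Pfkp rose and Tpi1 fell. The median log2 fold change of the group was -0.05. The summed level was 2188 and 2091 CPM in control and 2097 and 2136 CPM in Lhx2 cKO, so the groups overlapped. At the entry of the pathway, Hk1 (ENSMUSG00000037012.19), the hexokinase most adult brain cells use, was at 124 and 117 CPM in control and 145 and 151 CPM in Lhx2 cKO. Both Lhx2 cKO libraries lay above both controls, a log2 fold change of 0.29 (SE 0.094, edgeR adjusted p = 0.0206). Hk2, the inducible hexokinase, was at 13.2 and 12.7 CPM in control and 9.76 and 10.9 CPM in Lhx2 cKO. These libraries did not overlap either, but the log2 fold change of -0.33 (SE 0.162) missed the threshold (adjusted p = 0.153). The Hk1 call was lost without control 1 (adjusted p = 0.0513), control 2 (0.136) or Lhx2 cKO 2 (0.156).

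Phosphofructokinase commits sugar to glycolysis and is a tetramer of 3 kinds of subunit. Its platelet-type subunit, Pfkp (ENSMUSG00000021196.15), was at 124 and 134 CPM in control and 164 and 151 CPM in Lhx2 cKO. The log2 fold change was 0.29 (SE 0.095, adjusted p = 0.0272 in edgeR), lost without control 1 (0.242) or Lhx2 cKO 1 (0.191). The liver type, Pfkl, and the muscle type, Pfkm, had log2 fold changes of 0.11 and 0.08 with adjusted p of 0.478 and 0.605. Tpi1 (ENSMUSG00000023456.17), the triose phosphate isomerase, was the glycolytic enzyme that fell. It was at 123 and 103 CPM in control and 85.9 and 92.2 CPM in Lhx2 cKO. The control libraries stood further apart than the distance from the lower control to the higher Lhx2 cKO library, and the log2 fold change of -0.34 (SE 0.099, adjusted p = 0.0102 in edgeR) was -0.22 without control 1 (0.227). That call was also lost without Lhx2 cKO 1 (0.084). Tpi1 overlaps Spsb2 and Pfkp overlaps Pitrm1 on the other strand in GENCODE M21. The use of strand in counting is not given in the sources used here, so both are uncertain. The same holds for Hk1, Pfkfb3, Pdk2 and Ndrg1, which overlap the opposite-strand genes Hk1os, Gm10851, Gm11513, and Gm17035 and Gm2895 there, and Slc2a3 overlaps the pseudogene Gm4482 on its own strand.

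The other 14 rows of enzymes did not pass. Gapdh, the dehydrogenase in the middle of the pathway and a common reference gene, was at 130 and 134 CPM in control and 125 and 127 CPM in Lhx2 cKO. Its log2 fold change of -0.07 had a 95% interval from -0.25 to 0.12. Pgk1, which makes the first ATP of the payoff phase, was at 41.4 and 39.9 CPM against 42.1 and 37.8 CPM, and these libraries overlapped. Pkm was at 576 and 541 CPM in control and 493 and 497 CPM in Lhx2 cKO, a log2 fold change of -0.17 (95% interval -0.38 to 0.03, adjusted p = 0.246). Gpi1, which turns glucose-6-phosphate into fructose-6-phosphate, was at -0.19 and the enolases Eno1 and Eno2 at -0.05 and -0.21 on the log2 scale. Without Lhx2 cKO 1, Eno2, the neuronal enolase, would pass at -0.36 (adjusted p = 0.0458), while it was at -0.09 without control 1 (adjusted p = 0.730) and at -0.07 without Lhx2 cKO 2 (adjusted p = 0.812). The fructose bisphosphate aldolase Aldoa was at -0.04 in its main row and at -0.34 in its second, which held 3.90 CPM in control. Pgam1, the phosphoglycerate mutase, and Ldha, the lactate dehydrogenase subunit that favours lactate, were both at 0.16, and Ldhb, the subunit that favours pyruvate, at -0.07. The largest of these differences, that of the second Aldoa row, had an adjusted p of 0.459.

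The bifunctional PFK-2 enzymes make fructose-2,6-bisphosphate, the strongest activator of phosphofructokinase. Pfkfb3 (ENSMUSG00000026773.20), the form with the highest kinase activity, rose from 49.4 and 54.8 CPM in control to 64.8 and 63.6 CPM in Lhx2 cKO. The log2 fold change was 0.30 (SE 0.101, edgeR adjusted p = 0.0263). It missed the threshold in DESeq2 (0.0591) and without control 1 (0.275), Lhx2 cKO 1 (0.099) or Lhx2 cKO 2 (0.0938). Pfkfb2, the heart-type form, was at 34 and 40.6 CPM against 41.3 and 36.1 CPM and overlapped.

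Of the 4 transporters 1 rose and 0 fell (25% called, beside 20.8% of all genes). Slc2a3 (ENSMUSG00000003153.11), which encodes GLUT3, the high-affinity glucose transporter of neurons, was at 37.6 and 41.6 CPM in control and 53.5 and 61.9 CPM in Lhx2 cKO. Each Lhx2 cKO library lay above both controls, with a log2 fold change of 0.54 (SE 0.105, edgeR adjusted p = 1.41e-04), a 1.46-fold rise. Leaving out 1 library gave log2 fold changes from 0.43 to 0.64. Slc2a1, which encodes GLUT1, the transporter of brain endothelium and glia, was at 83.7 and 99 CPM in control and 88.8 and 102 CPM in Lhx2 cKO. Its libraries overlapped, and the log2 fold change of 0.07 had a 95% interval from -0.14 to 0.27. The lactate carrier Slc16a1 (MCT1) had a log2 fold change of -0.04. Slc16a3 (MCT4), the carrier of lactate-exporting cells, was at 7.96 and 6.72 CPM in control and 9.19 and 9.97 CPM in Lhx2 cKO, a log2 fold change of 0.38 (SE 0.187) that missed the threshold (adjusted p = 0.148).

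Cell type markers moved beside the transporters. Of 10 endothelial markers 7 were called higher and 0 lower, among them Cdh5 (log2 fold change 0.72), Cldn5 (0.70) and Kdr (0.49). Their summed level was 201 to 239 CPM in control and 297 to 343 CPM in Lhx2 cKO. Of 7 markers of pericytes and meninges 1 was called higher and 2 lower. The sum of these markers was 188 to 195 CPM in control and 170 to 173 CPM in Lhx2 cKO. Of 13 neuronal markers 2 were called higher and 2 lower, and their sum was 6555 to 6728 CPM in control and 6800 to 7092 CPM in Lhx2 cKO. Microglial markers summed to 119 to 121 CPM in control and 244 to 270 CPM in Lhx2 cKO, with 9 of 10 called higher. No listed marker in the matrix had a count of 0 in any library. The part of these cell types in the values of Slc2a1 and Slc2a3 was not tested.

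The pyruvate dehydrogenase kinases switch off pyruvate dehydrogenase and so hold pyruvate back from respiration. Pdk2 (ENSMUSG00000038967.14), the widely expressed form, had the largest change of all the genes analysed. It was at 34.8 and 30 CPM in control and 17.8 and 19.6 CPM in Lhx2 cKO. Both Lhx2 cKO libraries lay far below both controls, with 57.8% of the control level remaining (log2 fold change -0.79, SE 0.124, edgeR adjusted p = 4.56e-06). Leaving out 1 library gave values from -0.89 to -0.69. Pdk1, the form induced by HIF, was at 11.8 and 16.6 CPM in control and 20.7 and 15.7 CPM in Lhx2 cKO. Its libraries overlapped, and the log2 fold change of 0.36 (SE 0.159) missed the threshold (adjusted p = 0.111). It would pass without control 2 (0.62, adjusted p = 0.0102) and without Lhx2 cKO 2 (0.54, adjusted p = 0.0241), but it was at 0.12 without control 1 (adjusted p = 0.741) and at 0.14 without Lhx2 cKO 1 (adjusted p = 0.655). Pdk3 was at 7.34 and 7.60 CPM against 5.89 and 8.66 CPM, a log2 fold change of -0.04.

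**Figure D3:**
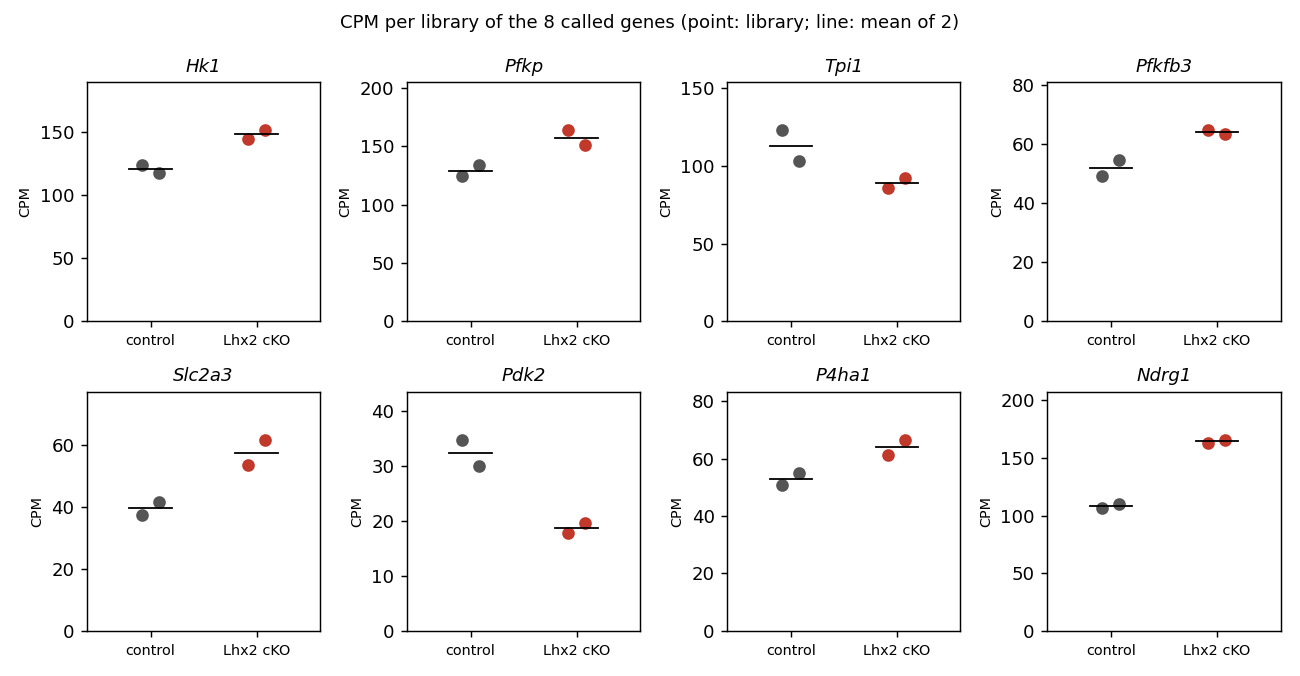
CPM of the 8 genes called in edgeR, with 1 point per library and a line at the mean of 2, on axes that start at 0. The groups are apart in every panel, narrowly for Tpi1, and most widely for Pdk2, with 34.8 and 30 CPM in control against 17.8 and 19.6 CPM in Lhx2 cKO.

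None of the 4 genes of the oxygen sensor itself was called in edgeR (beside 20.8% of all genes), DESeq2 (beside 16.3%) or limma-voom (beside 20.7%). In edgeR 0 of the 4 had an unadjusted p under 0.05, against 4253 of the 13288 genes tested. With so few genes, a count of 0 says nothing particular of the oxygen sensor. Hif1a, the broadly expressed alpha subunit, was at 65.6 and 68.5 CPM in control and 62.7 and 60.4 CPM in Lhx2 cKO. The groups did not overlap, but the log2 fold change of -0.12 had a 95% interval from -0.32 to 0.08. Epas1, which encodes the HIF-2 alpha subunit and is strong in endothelium, was at 14.9 and 12.9 CPM against 13.4 and 15.9 CPM, and overlapped. Egln1, the main oxygen sensor among the prolyl hydroxylases, had a log2 fold change of 0.006 (95% interval -0.20 to 0.21). Egln3, a prolyl hydroxylase that HIF itself induces, was at 4.99 and 5.40 CPM in control and 5.85 and 7.49 CPM in Lhx2 cKO, and its log2 fold change was 0.36 (SE 0.222, adjusted p = 0.271).

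Of the 11 other hypoxia targets 2 rose and 0 fell (18.2% called, beside 20.8% of all genes). The median log2 fold change was -0.03. Ndrg1 (ENSMUSG00000005125.14), a stress-induced gene of differentiation and myelination, was at 107 and 110 CPM in control and 163 and 166 CPM in Lhx2 cKO. The libraries of each group lay close together and the groups far apart, a log2 fold change of 0.60 (SE 0.094, edgeR adjusted p = 4.09e-06), or 1.52-fold. P4ha1, the catalytic subunit of collagen prolyl 4-hydroxylase, was at 50.9 and 54.9 CPM in control and 61.1 and 66.6 CPM in Lhx2 cKO. Its log2 fold change of 0.27 (SE 0.101) was near the threshold (adjusted p = 0.0478 in edgeR). It was not called with RLE size factors (0.0528), library totals (0.0873), DESeq2 (0.102), or without control 1 (0.308), control 2 (0.0519) or Lhx2 cKO 2 (0.351). In the authors' deposited table its adjusted p was 0.0703, and the other 7 called genes had an adjusted p under 0.05 there. The authors' own mark of change was set for only 2 genes of the set, Pdk2 as down and Ndrg1 as up. Hk1, Pfkp, Tpi1, Pfkfb3, Slc2a3 and P4ha1 were marked NS.

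The other 9 targets did not pass. Vegfa, the main growth signal for blood vessels, was at 64.3 and 70.2 CPM in control and 74.1 and 62.9 CPM in Lhx2 cKO, a log2 fold change of 0.03 (95% interval -0.18 to 0.23). The mitophagy receptors Bnip3 and Bnip3l were both at -0.03. Bnip3l also clears mitochondria from maturing red cells, whose marker list summed to 3200 and 2359 CPM in control and 2154 and 1921 CPM in Lhx2 cKO, with 5 of 8 called lower and 1 higher. The part of red cells in the value of Bnip3l was not tested. Kdm3a, a histone H3 lysine demethylase, was at 93.7 and 106 CPM in control and 85.3 and 81.4 CPM in Lhx2 cKO, a log2 fold change of -0.26 (SE 0.098) that just missed the threshold (adjusted p = 0.0521). It would pass with RLE size factors (0.0484), upper-quartile factors (0.0492) or without control 1 (-0.36, adjusted p = 0.0228). It was further from the threshold in DESeq2 (0.0818) and without control 2 (-0.17, adjusted p = 0.380), Lhx2 cKO 1 (-0.29, 0.0844) or Lhx2 cKO 2 (-0.23, 0.245). Mxi1, an antagonist of Myc, was at -0.19, Ddit4 at -0.13 and P4ha2, the second P4h alpha subunit, at -0.02. Adm, the vasodilator adrenomedullin, and Ankrd37 were near the lower end of measurement. Adm was at 1.11 and 1.76 CPM in control and 2.46 and 2.18 CPM in Lhx2 cKO, and its log2 fold change of 0.69 (SE 0.386) had a 95% interval from -0.09 to 1.47.

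The 33 genes that missed the threshold were not all measured equally well. For 26 of them the 95% interval lay within a 1.5-fold change in either direction. For the other 7, among them Adm, Ankrd37, Egln3 and Pdk1, the interval reached past it on at least 1 side.

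Shares within families of related genes were taken from CPM per kb, and since both genes come from the same library these shares do not depend on the scaling between libraries. With 2 libraries against 2, the smallest two-sided p of an exact permutation test is 0.333, so they are given without a test. In 9 of 12 families the share of at least 1 gene did not overlap between the groups. The 59.3% of single genes without overlap is no background for this count. It was taken on CPM and not on shares, and a family counts when any of its shares is apart. The share of Hk1 in the hexokinases was 86.8% and 86.6% in control, against 91.2% and 90.7% in Lhx2 cKO. That of Slc2a3 in the pair of glucose transporters was 17.9% and 16.9% in control, against 22.6% in both Lhx2 cKO libraries. Pdk2 held 71.5% and 65% of the pyruvate dehydrogenase kinases in control, against 53.2% and 53.4% in Lhx2 cKO. Pdk1 was at 9.85% and 14.6% against 25.1% and 17.4%, and Pdk3 at 18.6% and 20.4% against 21.7% and 29.2%. Shares of a family add up to the whole, so a fall of Pdk2 alone raises the other shares. Neither Pdk1 nor Pdk3 was called by its own level, and the log2 fold change of Pdk3 was -0.04. Ldha held 39.3% and 38.3% of lactate dehydrogenase in control, against 42.4% and 43% in Lhx2 cKO, although neither Ldha nor Ldhb was called alone. Shares of the enolases, the HIF alpha subunits and the Bnip3 pair overlapped.

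**Figure D4:**
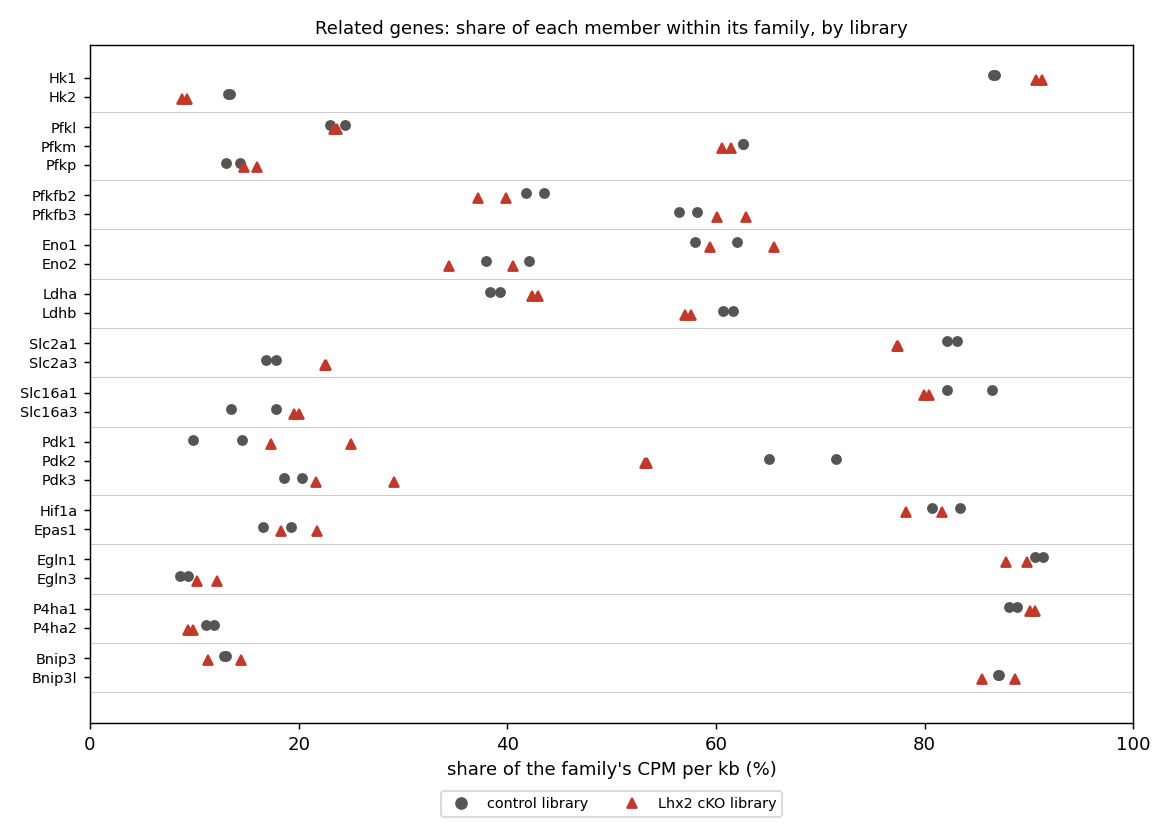
Share of each gene in the summed CPM per kb of its family, in percent, with grey circles for control and red triangles for Lhx2 cKO libraries and grey lines between families. Hk1 and Hk2, Slc2a1 and Slc2a3, Ldha and Ldhb and the Pdk genes show groups that do not overlap, with the libraries of a group lying close together in the first 3 families.

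Libraries of the same group differed most for genes with few reads. Between the controls the second Aldoa row, Ankrd37, Adm and Pdk1 differed most, by -0.83, 0.68, 0.66 and 0.49 on the log2 CPM scale (control 2 minus control 1). Between the Lhx2 cKO libraries Pdk3 and Bnip3 differed by 0.56 and 0.43 and Pdk1 by -0.40 (Lhx2 cKO 2 minus 1).

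**Figure D5:**
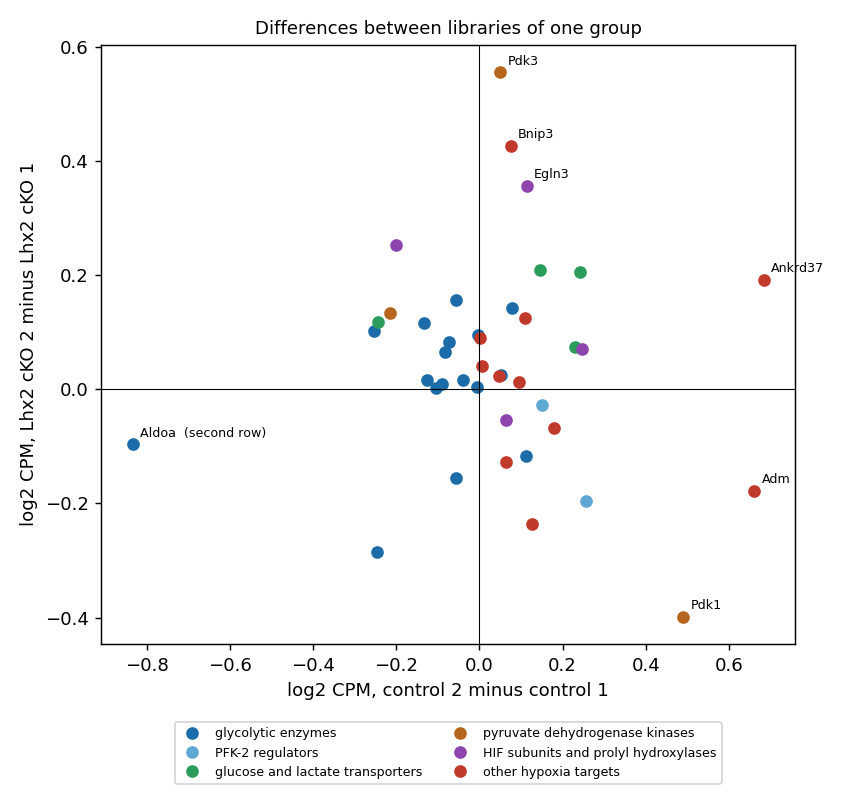
Difference in log2 CPM between the 2 control libraries (horizontal) and the 2 Lhx2 cKO libraries (vertical) for each gene, coloured by role. Pdk1 lies at 0.49 and -0.40, and most glycolytic enzymes lie near the centre.

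The neighbouring steps of sugar metabolism were counted from lists of other genes. The shares called were 22.2% for further glycolysis genes and 0% for the pentose phosphate pathway. They were 18.2% for pyruvate entry and oxidation and 25% for other transporters, beside 20.8% of all genes. Of 18 further glycolysis genes 1 was called higher and 3 lower, with Pgm2 at -0.61 (adjusted p = 0.00109), Gpd1, the cytosolic glycerol-3-phosphate dehydrogenase, at -0.51 (0.0169) and Pgm1 at 0.52 (0.0208) on the log2 scale. Of the 10 genes of the pentose phosphate pathway, which makes NADPH and ribose, 0 were called in edgeR, DESeq2 or limma-voom. In edgeR 0 of these genes had an unadjusted p under 0.05, against 4253 of the 13288 genes tested. Their log2 fold changes ran from -0.17 to 0.13. Of 11 genes of pyruvate entry and oxidation 2 were called, and they are partners: the E1 subunits of pyruvate dehydrogenase, Pdhb at -0.37 (adjusted p = 0.00519) and Pdha1 at 0.35 (0.029). Of 12 other sugar and monocarboxylate transporters 3 were called, all lower, among them Slc16a14 at -1.71 (1.40e-05) and Slc2a13, a proton-coupled inositol transporter, at -0.73 (0.00868).

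Among 13 other components of the HIF pathway 2 were called (15.4%, beside 20.8% of all genes). Both were lower: the coactivators Ep300 at -0.36 (edgeR adjusted p = 0.00521) and Crebbp at -0.33 (0.0117). Of 32 further genes known to be induced by hypoxia 6 were called higher (18.8%, beside 11.6% of all genes called higher) and 0 lower (beside 9.17%), with a median log2 fold change of 0.18. Vldlr, the lipoprotein receptor that also binds reelin, was at 66.2 and 66.3 CPM in control and 102 and 108 CPM in Lhx2 cKO, with a log2 fold change at 0.66 (SE 0.097, adjusted p = 1.26e-06). Flt1, a VEGF receptor of endothelium, was at 0.46 (0.00674) and Plin2, a coat protein of lipid droplets, at 0.51 (0.0119). Flt1 is also 1 of the endothelial markers given above, and the part of those cells in its value was not tested. Targets of the integrated stress response, a pathway that can also induce Vldlr and Ddit4, had 5 of 15 called higher and 1 lower. Besides Vldlr these were led by Atf5, which fell by 0.85, and Sesn2, which rose by 0.89 on the log2 scale (adjusted p = 6.43e-06 and 0.00115). Immediate early genes, which respond to handling of tissue as well as to activity, had 7 of 10 called higher and 0 lower, with a sum of 354 to 359 CPM in control and 516 to 521 CPM in Lhx2 cKO. Cycling cell markers, a sign of progenitors, summed to 512 to 566 CPM in control and 344 to 348 CPM in Lhx2 cKO, with 11 of 14 called lower. The part of either in the values of the glycolytic and hypoxia genes was not tested.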

How the data were processed

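The deposited matrix holds raw read counts per gene for 4 libraries, as whole numbers without normalization, per the file headers and values. Trim Galore, Subread, featureCounts, edgeR and the build mm39 are named in the submitters' processing notes, without settings. The annotation and the use of strand are not given in the sources used here. Low genes had been removed before deposit, since the lowest row total is 102. The same matrix carries the authors' own log2 fold changes, log2 CPM, p-values with adjusted p-values and their -log10. It also holds their mark of change and gene lengths, all as deposited by the authors.

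The members and lists were chosen with earlier results of these data known. Every gene of the set is named; other lists give at most 3 called genes by smallest p, and 1 gene that this rule names is not reported here. Counts were tested with edgeR 4.0.16 in R 4.3.3 (TMM, filterByExpr with a minimum of 10 counts, glmQLFit and glmQLFTest, 2 Lhx2 cKO against 2 control libraries, no covariates), two-sided, with Benjamini-Hochberg adjustment over 13288 genes. The filter removed 1 gene, which was not in the set. The SE is the absolute log2 fold change over the square root of F, and 95% intervals use 40.7 degrees of freedom. The test was checked on simulated data. The intervals rest on the spread between libraries that edgeR estimated across genes, and the floor of 3 counts covers counting error only. Alternatives were RLE, upper-quartile and no scaling factors, no filter, a mean count of at least 50, a replicate block, DESeq2 1.42.0, limma-voom (limma 3.58.1), an adjusted p under 0.01 and leaving out each library, where the lone library of a group is assumed to vary like the others. Overlaps and pseudogenes come from GENCODE M21 (GRCm38), used for names only. Promoters come from RefSeq (GRCm38.p6); 50 of the 56 windows of the set were found to run into a GENCODE M21 transcript of their gene.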

Additional observations from a re-analysis of the deposited data

How the results depend on the processing

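Under the 12 alternatives 0 of the 8 called genes reversed direction, and Pdk2, Slc2a3 and Ndrg1 kept their calls in each. The libraries of these 8 genes do not overlap between groups, so their kept direction is no sign of stability. At an adjusted p under 0.01 there were, by construction, fewer calls: 1697 over all genes and 3 in the set. Of the 3, 2 were higher (background 7.31%) and 1 lower (background 5.46%). Leaving out 1 library gave 1633 to 2396 calls over all genes and 4 to 7 in the set, 2 to 5 of them higher and 2 lower in each fit, with fewer samples by construction. The lowest total, 1633 (12.3%), came without Lhx2 cKO 2. Without control 1 there were 1790, and the 4 genes of the set were Slc2a3 and Ndrg1, higher, and Pdk2 and Kdm3a, lower. DESeq2 called 4 higher (background 8.99%) and 2 lower (background 7.34%). RLE and upper-quartile factors each gave 3 lower (backgrounds 9.38% and 9.48%), with Kdm3a as the third.

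Among the uncalled genes, 13 changed sign in some setting. With library totals Egln1 was at -0.0064, and with limma-voom Ankrd37 was at 0.0070. Leaving out 1 library, log2 fold changes ran from -0.70 to 0.12 for the second Aldoa row, -0.10 to 0.047 for Pgk1, -0.080 to 0.19 for Pfkfb2, -0.063 to 0.19 for Slc2a1, -0.16 to 0.082 for Slc16a1, -0.35 to 0.21 for Pdk3, -0.058 to 0.20 for Epas1, -0.12 to 0.14 for Egln1, -0.26 to 0.17 for Bnip3, -0.087 to 0.020 for Bnip3l, -0.10 to 0.14 for Vegfa, -0.041 to 0.0041 for P4ha2 and -0.34 to 0.36 for Ankrd37. The cause was not tested.

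Replicate numbers are common to both groups, but nothing in the labels ties equal numbers together, and the deviations of equal numbers from their group means correlated at -0.0052 over genes. A fit with the replicate block called 2874 of all genes (21.6%) and 9 of the set. Of the 9, 6 were higher (background 12.1%) and 3 lower (background 9.57%), Kdm3a among the latter (edgeR adjusted p = 0.0461). Depth limits Adm, Ankrd37 and the second Aldoa row, which had the widest intervals.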

Other observations

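The 2 control libraries differed in the hypoxia targets, a pattern noticed after the values were seen. All 11 targets outside glycolysis and the oxygen sensor were at or above the level of control 1 in control 2, with differences from 0.0005 to 0.68 and a median of 0.10 on the log2 CPM scale. Over all genes control 2 was the higher in 50.2%. Without scaling factors it was the higher in 60.8%. Each other scaling raised control 2 for all genes alike, so the count of 11 could not fall under them. Ankrd37 was the highest at 0.68, followed by Adm at 0.66, both with few counts, and Ddit4 was at 0.0005. Pdk1, another HIF target, was at 0.49. Of the 17 rows of glycolytic enzymes, 3 were higher in control 2. Between the Lhx2 cKO libraries 7 of the 11 targets and 13 of the 17 enzyme rows were higher in Lhx2 cKO 2. The endothelial list had 8 of 10 genes higher in control 2, with a median of 0.23, and the red cell list 0 of 8, with a median of -0.43. Genes of a library are not independent replicates, and no test was made.

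The second Aldoa row, which GENCODE M21 places directly beside the main one on the same strand, held 4.99 CPM in control 1 and 2.80 CPM in control 2, while the main row stood at 126 CPM in each.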
